A study of Mus musculus with 3 samples.

Results

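The proteasome genes are the 49 rows, of 23337 gene symbols in all, whose symbol begins with Psm, 1 letter from a to g and a digit. They comprised 8 alpha and 11 beta genes of the core particle, the Psmc and Psmd genes of the regulatory particle, 4 activators (Psme), 1 inhibitor (Psmf1) and 4 core assembly chaperones (Psmg). The rule also took in Psmc3ip, which shares the prefix but encodes a meiotic recombination factor and not a proteasome subunit. Every symbol of the set had a single row. Of the 49, 47 had a mean of at least 1 FPKM (fragments per kilobase of transcript and per unit of sequencing depth) over the libraries and were tested. Psma8 and Psmb11 fell short of it.

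RNA came from CD4+ T cells labelled Th1, the interferon-gamma-producing helper subset, taken from mice of the C57/Bl6j strain, wild-type in genotype and 7 weeks old. The lymphoid group held 2 libraries, titled as spleen, whose tissue label also names lymph nodes and draining lymph nodes. The tumour group held 1 library of cells from B16-F10 tumour, a transplantable melanoma line of the same strain. No treatment is named. The labels do not say how many animals gave the cells or whether libraries share animals, so the p-values below reflect only how far these libraries differ, and that may be technical variation. The question behind the comparison is what the tumour surroundings do to splicing and expression, of which only expression is taken up here.

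The proteasome is the barrel-shaped protease that degrades ubiquitin-tagged proteins. Its core particle stacks rings of alpha subunits, which form the gate, around rings of beta subunits, of which Psmb5, Psmb6 and Psmb7 cut peptide bonds. A regulatory particle of ATPases (Psmc) and non-ATPase subunits (Psmd) binds ubiquitin, unfolds the substrate and opens the gate. In lymphocytes by default, and in other cells under interferon gamma, newly made cores take up Psmb8, Psmb9 and Psmb10 in place of Psmb5, Psmb6 and Psmb7, which gives the immunoproteasome. That form is known for making peptides suited to MHC class I molecules. The Psme1 and Psme2 proteins, also induced by interferon gamma, cap the core as an activator that needs no ubiquitin.

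The libraries differed in depth, estimated from the steps between low values at 11400000 and 15420000 fragments for the lymphoid libraries and 3250000 for the tumour library. Values below are scaled FPKM, divided by median-of-ratios size factors of 1.29, 1.33 and 0.58, and a log2 change is that of scaled FPKM plus 1, tumour against lymphoid, which understates the change of low genes. A called gene had an adjusted p under 0.05 in a limma fit of 9800 genes with Benjamini-Hochberg adjustment. Its spread comes from the lymphoid pair alone, with 1 residual degree of freedom, and is taken to hold for the lone tumour library too. Summed levels of 5 T-cell genes (Cd3d, Cd3e, Cd3g, Cd4 and Lck) were 521.8, 524.6 and 465.2 in lymphoid library 1, lymphoid library 2 and the tumour library. Those of 6 Th1 genes were 154.2, 145.0 and 153.6. Of the genes of both lists, Ifng was called lower (log2 change -1.28) on about 10.3 tumour fragments, and the others were not called. The Ifng call was lost with counting error added (limma adjusted p = 0.226). In bulk RNA, fewer cells of a type and less RNA per cell cannot be told apart.

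The median log2 change of the proteasome genes lay near that of all tested genes, with more of them lower than higher. Of the 47 tested, 33 had a log2 change below 0, against 4955 of all 9800 tested genes. With 1 tumour library, a lack of calls does not show that levels were unchanged. Of the 47 tested genes 1 was called higher, which was Psmc3ip, against 12.7% of all tested genes called higher. Another 6 were called lower (Psmb5, Psmd13, Psmd5, Psmd9, Psmd10 and Psmg4), which is 12.8% of the 47 against 9.17% of all tested genes called lower. The other 40 were not called, so that 14.9% of the 47 had a call, against 21.9% of all tested genes. The median log2 change was -0.11, against -0.01 for all tested genes, with medians of -0.13 and -0.23 against lymphoid library 1 and lymphoid library 2. By position alone, 27 tumour values lay below both lymphoid values (57.4%, against 42.6% of all tested genes), 12 above both (25.5%, against 41.3%) and 8 between them. As deposited, without scaling, 45 of the 47 were called lower and 0 higher, against 77.8% and 4.74% of all tested genes, whose median log2 change was then -0.96. Scaled by library totals, 12 were called higher and 1 lower, against 44.6% and 2.85% of all tested genes, with a median of 0.65 over all genes. Directions are therefore given relative to the median gene.

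The 31 standard subunits of the core and regulatory particles together summed to 518.9, 552.5 and 497.0 scaled FPKM in lymphoid library 1, lymphoid library 2 and the tumour library. Of these 31, 0 were called higher and 2 lower, with a median log2 change of -0.10; at an unadjusted p under 0.05 in limma there were 8 of the 31, against 3626 of all 9800 tested genes. The geometric mean of the 14 standard core genes was 18.6, 18.9 and 17.2, and that of the 17 regulatory genes 12.9, 13.7 and 11.5. Core genes were thus 1.45, 1.38 and 1.49 times as abundant per length as regulatory ones, a narrow range across the libraries. Across all 47 tested proteasome genes, Pearson's r of log2 levels was 0.98 between the lymphoid libraries and 0.91 and 0.92 between each and the tumour library (Spearman's rho 0.97, 0.94 and 0.92), where genes are not independent replicates and the libraries share their annotation.

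**Figure D1:**
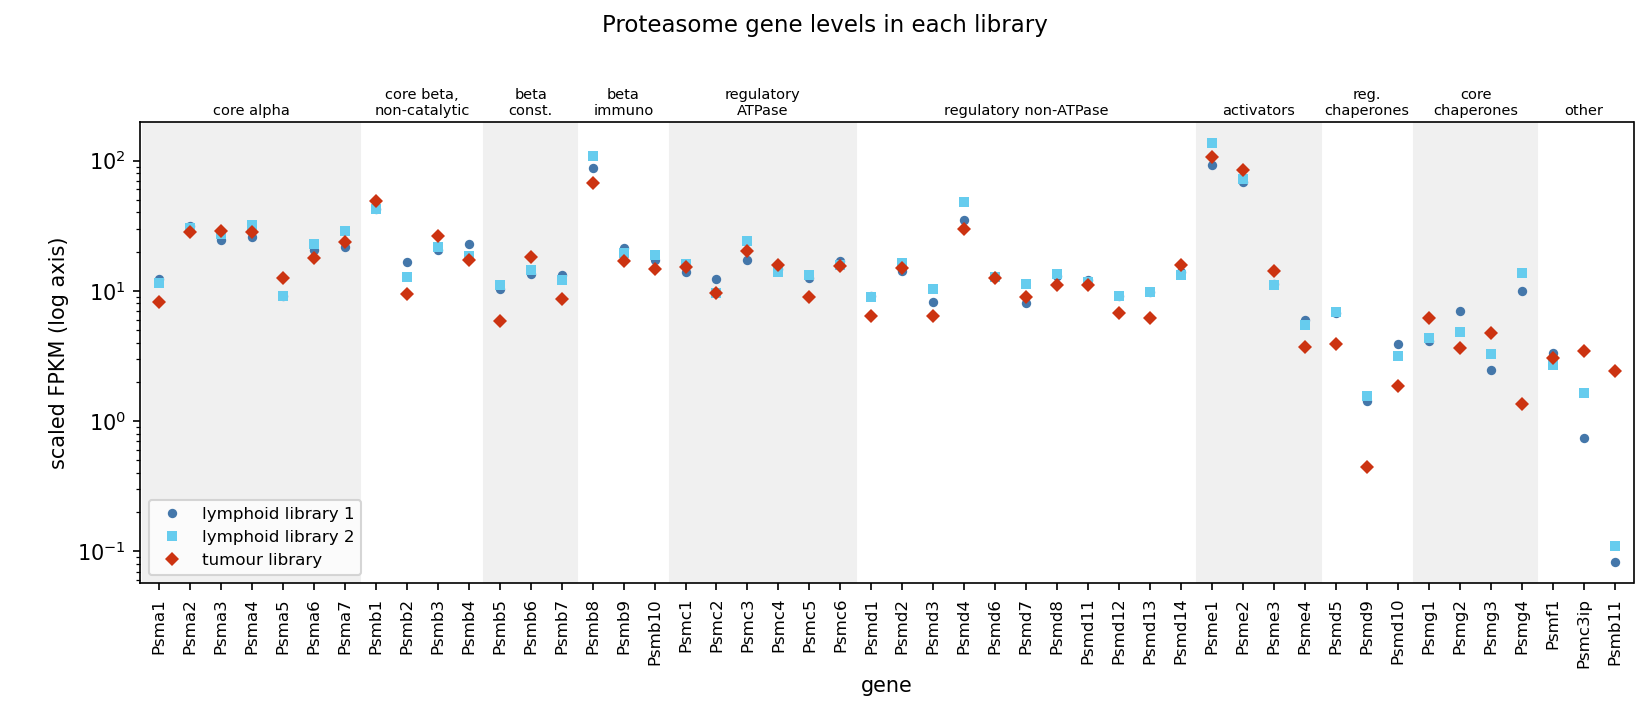
Scaled FPKM (log axis) of 48 proteasome genes in each of the 3 libraries, grouped by role, with no error bars since each point is 1 library; Psma8, at 0 in all libraries, is left out. Psme1, Psmb8 and Psme2 stand highest in every library, and the tumour points of most core and regulatory subunits lie close to the lymphoid ones, while those of Psmg4 (1.36 against 9.97 and 13.6) and Psmd9 lie well below.

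The alpha subunits, which build the outer rings and the gate, had 0 calls among 7 tested, with a median log2 change of -0.08 (0.11 against lymphoid library 1 alone and -0.18 against lymphoid library 2 alone). Psma2, the most abundant by its lymphoid mean, was at 31.2, 30.3 and 28.4. Psma5, the least abundant there, was at 9.14 and 9.20 in lymphoid cells and at 12.6 in the tumour library, the highest log2 change of the ring (0.42, SE 0.16, limma adjusted p = 0.117). Psma1 gave the lowest, at 12.3, 11.5 and 8.26 (log2 change -0.47, adjusted p = 0.0923). The tumour value of Psma5 lay above both lymphoid ones and that of Psma1 below both, and neither passed the test. Psma8, the alpha subunit of the testis, was listed at 0 in each library.

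Among the beta subunits without catalytic activity, 0 of 4 were called. Psmb1 was the most abundant standard core gene, at 42.7, 42.4 and 48.7. Psmb3 was at 20.8, 21.6 and 26.1, Psmb4 at 22.7, 18.5 and 17.1, and Psmb2 at 16.6, 12.8 and 9.38. Psmb1 and Psmb3 were thus above both lymphoid values and Psmb2 and Psmb4 below both, with log2 changes from -0.59 for Psmb2 (adjusted p = 0.102) to 0.29 for Psmb3 (adjusted p = 0.272).

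The 3 constitutive catalytic subunits did not move together. Psmb5 (ENSMUSG00000022193.7, chromosome 14, 54614119 to 54618022, GRCm38), which carries the chymotrypsin-like activity, was at 10.2 and 11.04 in the lymphoid libraries and at 5.84 in the tumour library. It fell by 0.77 on the log2 scale (log2 change -0.72 against lymphoid library 1 and -0.81 against lymphoid library 2, SE 0.16, limma adjusted p = 0.0246), on about 8.37 estimated tumour fragments, and was the 1 catalytic subunit called. Psmb7 (chromosome 2, 38588036 to 38644087), the trypsin-like subunit, was at 13.3, 12.1 and 8.65 (log2 change -0.50, adjusted p = 0.0866). Psmb6 (chromosome 11, 70525367 to 70527858), the caspase-like subunit, was at 13.4 and 14.4 in lymphoid cells and at 18.2 in the tumour library (log2 change 0.37, adjusted p = 0.173). Its tumour value stood above both lymphoid ones, where those of Psmb5 and Psmb7 stood below. The ratio of Psmb5 to Psmb6 was 0.763 and 0.769 in the lymphoid libraries and 0.321 in the tumour library. On the log2 scale that ratio differed by -1.25, with a counting SE of 0.58 from the estimated fragments, and this pair was picked after its values were seen.

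The 3 immunoproteasome subunits were abundant in every library and had 0 calls. Psmb8 (ENSMUSG00000024338.15, chromosome 17, 34197721 to 34201454), which takes the place of Psmb5, was at 87.6 and 107.6 in the lymphoid libraries and 67.5 in the tumour library, on about 206.9 tumour fragments. Its log2 change was -0.52 (SE 0.22, limma adjusted p = 0.151). Psmb9 (chromosome 17, 34181987 to 34187764), the counterpart of Psmb6, was at 21.5, 19.5 and 17.0 (log2 change -0.25, adjusted p = 0.340). Psmb10 (chromosome 8, 105935735 to 105938444), the counterpart of Psmb7, was at 17.1, 18.9 and 14.6 (log2 change -0.28, adjusted p = 0.288). Each tumour value lay below both lymphoid values, and the median log2 change of the 3 was -0.28, against -0.50 for the 3 constitutive catalytic subunits. GENCODE places an antisense gene over part of Psmb8 and another over the whole of Psmb10, Psmb7 overlaps Nek6 on the opposite strand, and Psmb9 likewise overlaps Tap1, which encodes a peptide transporter subunit. Whether the values were counted by strand is not given in the sources used here.

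Since a ratio within a library does not depend on scaling, the 2 kinds of catalytic subunit were set against each other pair by pair. Psmb8 exceeded Psmb5 by 8.55 and 9.75 times in the lymphoid libraries and by 11.5 times in the tumour library, a log2 difference between tumour and lymphoid cells of 0.34 with a counting SE of 0.52. For Psmb9 over Psmb6 the ratios were 1.599, 1.36 and 0.934, a log2 difference of -0.66 with a counting SE of 0.36. Psmb10 over Psmb7 gave 1.29, 1.56 and 1.69, a log2 difference of 0.25 with a counting SE of 0.42. In the tumour library the ratio of Psmb9 to Psmb6 was below both lymphoid ones and the other two were above both. Averaged over the 3 pairs, the log2 ratio was 1.38 and 1.46 in the lymphoid libraries (mean 1.42 ± 0.06, SD, n = 2) and 1.39 in the tumour library. The difference of -0.02 was smaller than the spread between the lymphoid libraries, and its counting SE was 0.25. No test was run on this mean, since 2 libraries against 1 allow no exact test under 0.05. Its genes were also chosen with earlier results of these data known. As a share of the summed FPKM of all 6 catalytic genes, the immunoproteasome genes made up 77.4%, 79.6% and 75.2%, and Psmb8 alone 53.7%, 58.7% and 51.2%.

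**Figure D2:**
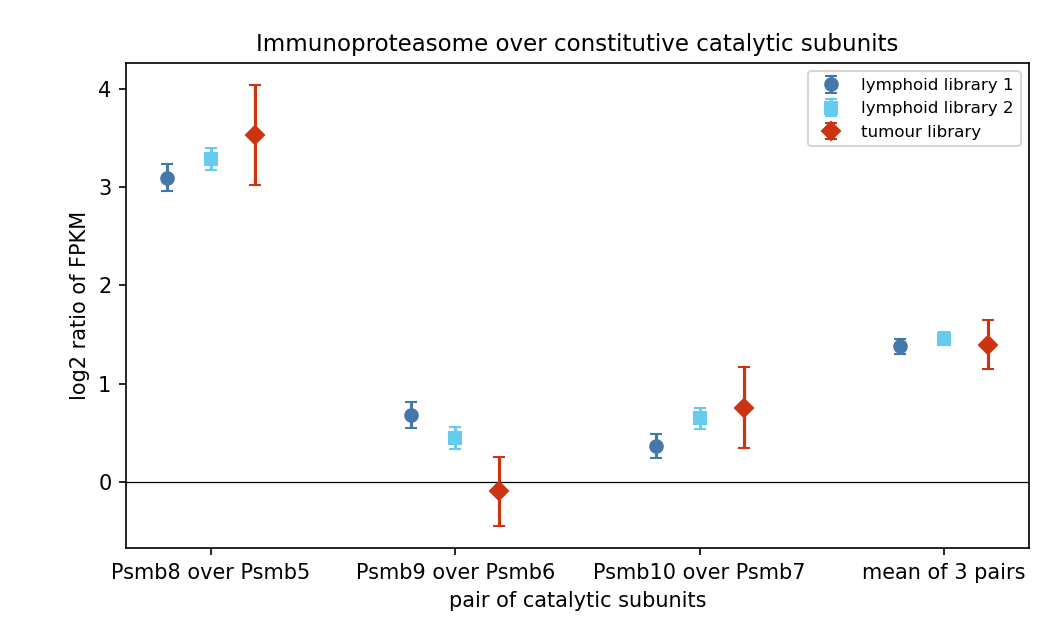
Log2 ratio of FPKM of each immunoproteasome subunit over its constitutive counterpart, and the mean of the 3 pairs, in each library; bars are 1 counting SE on each side, from estimated fragments. The mean ratio is 1.38, 1.46 and 1.39 in lymphoid library 1, lymphoid library 2 and the tumour library, while Psmb9 over Psmb6 is the 1 pair below its lymphoid values in the tumour library.

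Promoter sequences are shown for Psmb8 and the activator Psme1, as abundant interferon-induced members, and for Psmb5 and Psmb6, the catalytic subunits that stood on opposite sides of their lymphoid values. Each window runs from 250 bases before to 50 after a RefSeq start site (GRCm38.p6), 5′ to 3′ on the gene's strand. Motifs were searched on both strands, hence capitals can show the reverse complement. In Psmb8 and Psme1 the capitals mark GAAANNGAAA or GAAANNNGAAA, the repeat bound by interferon regulatory factors, and in Psmb5 and Psmb6 they mark TGACNNNGC, the antioxidant-response type of site bound by NFE2L1, a known activator of proteasome genes.
Psmb8 (chr17:34197945-34198244, plus strand): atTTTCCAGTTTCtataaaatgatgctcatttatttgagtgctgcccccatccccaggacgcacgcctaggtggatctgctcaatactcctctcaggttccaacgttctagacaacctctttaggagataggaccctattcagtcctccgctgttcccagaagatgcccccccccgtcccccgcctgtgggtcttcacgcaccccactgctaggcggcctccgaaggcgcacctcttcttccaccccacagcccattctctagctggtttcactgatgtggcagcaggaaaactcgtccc
Psme1 (chr14:55578244-55578543, plus strand): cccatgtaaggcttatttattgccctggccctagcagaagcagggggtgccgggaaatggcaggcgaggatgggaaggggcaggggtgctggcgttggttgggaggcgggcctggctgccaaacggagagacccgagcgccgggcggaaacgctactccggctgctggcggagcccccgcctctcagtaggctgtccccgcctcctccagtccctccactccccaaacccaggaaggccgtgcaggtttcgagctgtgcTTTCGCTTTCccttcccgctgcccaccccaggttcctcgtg
Psmb5 (chr14:54617946-54618245, minus strand): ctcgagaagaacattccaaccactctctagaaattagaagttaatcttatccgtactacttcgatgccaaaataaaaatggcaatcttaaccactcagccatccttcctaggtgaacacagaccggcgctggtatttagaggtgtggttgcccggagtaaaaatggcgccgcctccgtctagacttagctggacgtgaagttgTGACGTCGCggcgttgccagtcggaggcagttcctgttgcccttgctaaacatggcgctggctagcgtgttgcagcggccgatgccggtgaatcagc
Psmb6 (chr11:70525107-70525406, plus strand): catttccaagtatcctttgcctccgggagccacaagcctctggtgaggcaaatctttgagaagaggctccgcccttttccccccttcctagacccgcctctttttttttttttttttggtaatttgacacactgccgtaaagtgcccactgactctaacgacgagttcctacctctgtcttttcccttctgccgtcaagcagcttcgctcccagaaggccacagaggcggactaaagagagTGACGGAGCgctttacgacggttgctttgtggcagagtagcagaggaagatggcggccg
Counting from 1 at the 5′ end of the window, the matches begin at position 3 in Psmb8, 260 in Psme1, 204 in Psmb5 and 242 in Psmb6. That of Psme1 thus lies after the start site. Of 44 windows found for 41 of the 49 genes, 6 (13.6%) held the interferon-factor repeat, in Psmb3, Psmb8, Psmd4, Psmd9, Psme1 and Psmg4, against 5.99% of all 32851 windows. The antioxidant-response type was also in 6 (13.6%), in Psmb5, Psmb6, Psmc6, Psmd12, Psmd9 and Psme4, against 12.4% of all windows. Psmd9, Psmg4 and Psmb5 of these genes were called lower and the others were not called, and a match is a description of letters in the window. By spacing, GAAANNNGAAA, the form in Psmb8, was in 4.55% of the member windows against 2.75% of all windows. GAAANNGAAA, the form in Psme1, was in 11.4% against 3.44%.

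The ATPases of the regulatory particle, which unfold substrates, had 0 calls of 6 and a median log2 change of -0.04. Psmc3, the most abundant by its lymphoid mean, was at 17.3, 24.0 and 20.3, with the tumour value between the lymphoid ones, and Psmc2, the least abundant by that mean, was at 12.3, 9.70 and 9.56. Log2 changes ran from -0.48 for Psmc5 (12.7, 13.2 and 8.95, limma adjusted p = 0.0871) to 0.13 for Psmc4 (14.8, 13.9 and 15.8, adjusted p = 0.613).

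Of the 11 non-ATPase subunits, 10 had a log2 change below 0, against 4955 of all 9800 tested genes, and 1 was called lower (9.09%, against 9.17%). Psmd13 (ENSMUSG00000025487.15, chromosome 7, 140881968 to 140898643), a subunit of the lid, was at 9.72 and 9.85 in lymphoid cells and at 6.18 in the tumour library. It fell by 0.59 on the log2 scale (SE 0.15, limma adjusted p = 0.0475), on about 16.1 tumour fragments, and the gene overlaps Sirt3 on the opposite strand. That call was lost with counting error added (limma adjusted p = 0.498), at pseudocount 0.1 (0.0525) and above a mean of 5 FPKM (0.0806). The median log2 change of the 11 was -0.25, and 8 of the 11 tumour values lay below both lymphoid values, as did 42.6% of all tested genes. Psmd4, a ubiquitin receptor and the most abundant of them, was at 35.2, 48.3 and 29.6 (log2 change -0.46, adjusted p = 0.227). Psmd1, a large scaffold subunit and the least abundant of them by its lymphoid mean, was at 9.18, 9.01 and 6.38. Psmd14, the deubiquitinase that removes ubiquitin chains, gave the 1 positive log2 change (0.19, adjusted p = 0.441), at 14.1, 13.1 and 15.7.

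The 3 members of the set that are chaperones of ATPase ring assembly, Psmd5, Psmd9 and Psmd10, were all called lower (median log2 change -0.69). Of all tested genes 9.17% were called lower. With counting error added these 3 calls were lost (limma adjusted p = 0.289, 0.366 and 0.562). Psmd5 (ENSMUSG00000026869.12, chromosome 2, 34849734 to 34874968) was at 6.81 and 6.89 in the lymphoid libraries and at 3.88 in the tumour library. It fell by 0.69 (SE 0.15, limma adjusted p = 0.0281), on about 32.2 tumour fragments, the highest number behind any of the called members. Psmd9 (ENSMUSG00000029440.15, chromosome 5, 123169413 to 123250131) was at 1.43, 1.57 and 0.444. Its log2 change of -0.79 (SE 0.16, adjusted p = 0.0245) rested on about 2.17 tumour fragments. Psmd10 (ENSMUSG00000031429.14, chromosome X, 140948429 to 140956728), also called gankyrin, was at 3.93, 3.16 and 1.85, and fell by 0.67 (SE 0.17, adjusted p = 0.0453) on about 4.92 fragments. All 3 tumour values lay below both lymphoid values, and those of Psmd9 and Psmd10 rested on under 10 fragments. Psmd5 overlaps Cutal, and Psmd9 overlaps Hpd, on the opposite strand.

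The 4 chaperones of core assembly, which work as the pairs Psmg1 with Psmg2 and Psmg3 with Psmg4, diverged. Psmg4 (ENSMUSG00000071451.10, chromosome 13, 34162964 to 34178173) was at 9.97 and 13.6 in the lymphoid libraries and at 1.36 in the tumour library. It fell by 2.42 (SE 0.21, limma adjusted p = 0.00179), by far the most of the 47 genes, but the tumour value stands for about 1.32 fragments of a transcript of 514.5 nt. Its partner Psmg3 was at 2.48, 3.30 and 4.74, on the other side of its lymphoid values (log2 change 0.57, adjusted p = 0.0818). The protein-coding gene Gm26938 overlaps Psmg3 on the same strand over 2816 bases, so strand cannot tell apart reads from any exon they share. Psmg1 was at 4.13, 4.37 and 6.23 (log2 change 0.46, adjusted p = 0.0806), and its partner Psmg2 at 7.06, 4.797 and 3.66 (log2 change -0.55, adjusted p = 0.144). In each pair, then, 1 partner lay above and 1 below both lymphoid values, on 1.32 to 10.9 tumour fragments.

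**Figure D3:**
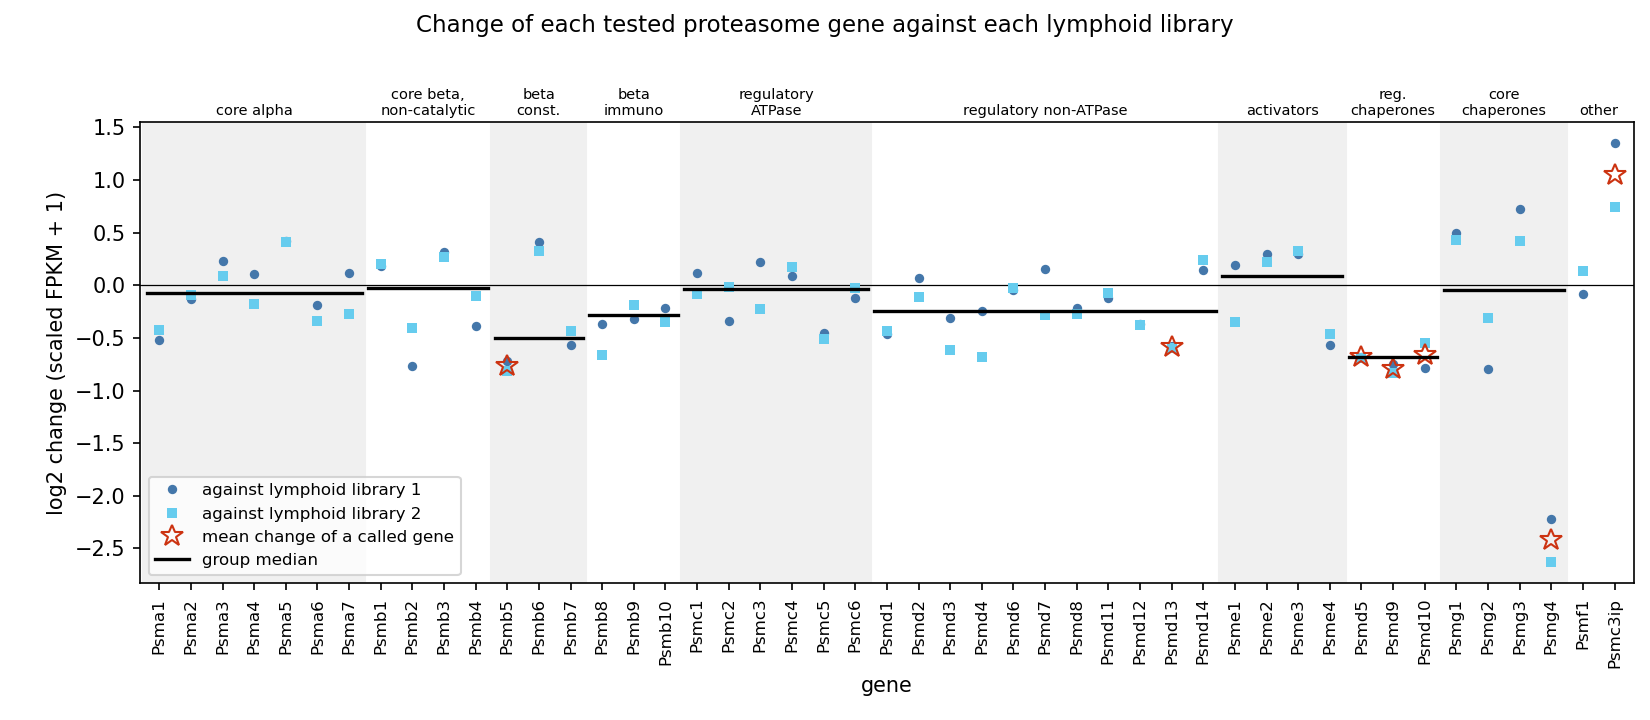
Log2 change of scaled FPKM plus 1 of the 47 tested genes in the tumour library against each lymphoid library, with group medians as black lines and called genes starred at their mean change. The 3 regulatory chaperones lie together below 0 (median -0.69), the activators scatter on both sides (median 0.09), and Psmg4 stands apart at -2.42.

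The activators had 0 calls of 4 and a median log2 change of 0.09 (0.24 against lymphoid library 1 alone and -0.06 against lymphoid library 2 alone). Psme1 (chromosome 14, 55578123 to 55581529) was the most abundant member in all libraries, at 93.1, 135.5 and 106.3, with the tumour value between the lymphoid ones (log2 change -0.08, SE 0.28, limma adjusted p = 0.865). Psme2, its partner in the interferon-induced cap and a gene of the same chromosome, was at 68.2, 71.9 and 84.2 (log2 change 0.26, adjusted p = 0.370). A near copy, Psme2b, is annotated and had no row here, so reads it shares with Psme2 cannot be told apart. Psme3, a nuclear activator of the same family, was at 11.3, 11.1 and 14.2 (log2 change 0.31, adjusted p = 0.215). Psme4, a large nuclear activator linked to histone turnover, was at 5.76 ± 0.346 (SD, n = 2) in the lymphoid libraries and 3.73 in the tumour library (log2 change -0.51, adjusted p = 0.0655). Psme2 and Psme3 thus lay above both lymphoid values and Psme4 below both. The ratio of Psme1 to Psme2 was 1.36, 1.88 and 1.26, with the lymphoid libraries further apart than lymphoid library 1 and the tumour library. Psmf1, which encodes an inhibitor of the core, was at 3.31, 2.70 and 3.07 (log2 change 0.03).

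Psmc3ip and Psmb11 were higher at low levels. Psmc3ip was at 0.748 and 1.66 in the lymphoid libraries and at 3.45 in the tumour library, a log2 change of 1.05 (SE 0.27, limma adjusted p = 0.0463), on about 8.39 tumour fragments. Psmb11, the catalytic subunit of the thymoproteasome of cortical thymic epithelium (chromosome 14, 54621433 to 54629556, next to Psmb5), was at 0.0826, 0.110 and 2.43, on about 19.5 tumour fragments, and was called higher only in the fit without a filter on low values. Over 1440 odorant and vomeronasal receptor genes, which T cells are not known to express, mean scaled FPKM was 0.0583, 0.1005 and 0.662 in the same order. That low-level signal moved the same way as Psmc3ip and Psmb11, and its part in either was not tested.

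Few of the calls rested on many fragments. Of the 7 called genes 5 had under 10 estimated tumour fragments, and over the 47 genes the number ran from 1.32 to 206.9 with a median of 32.9. When the counting error of the tumour value was added to the squared SE, limma called 0 of the 47, against 3.21% higher and 0.269% lower of all genes so tested. At an unadjusted p under 0.05 that fit left 2 of the 47, Psmd5 and Psmg4, whose limma adjusted p was 0.289 and 0.223. For Psmb5 the adjusted p was 0.503 there.

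**Figure D4:**
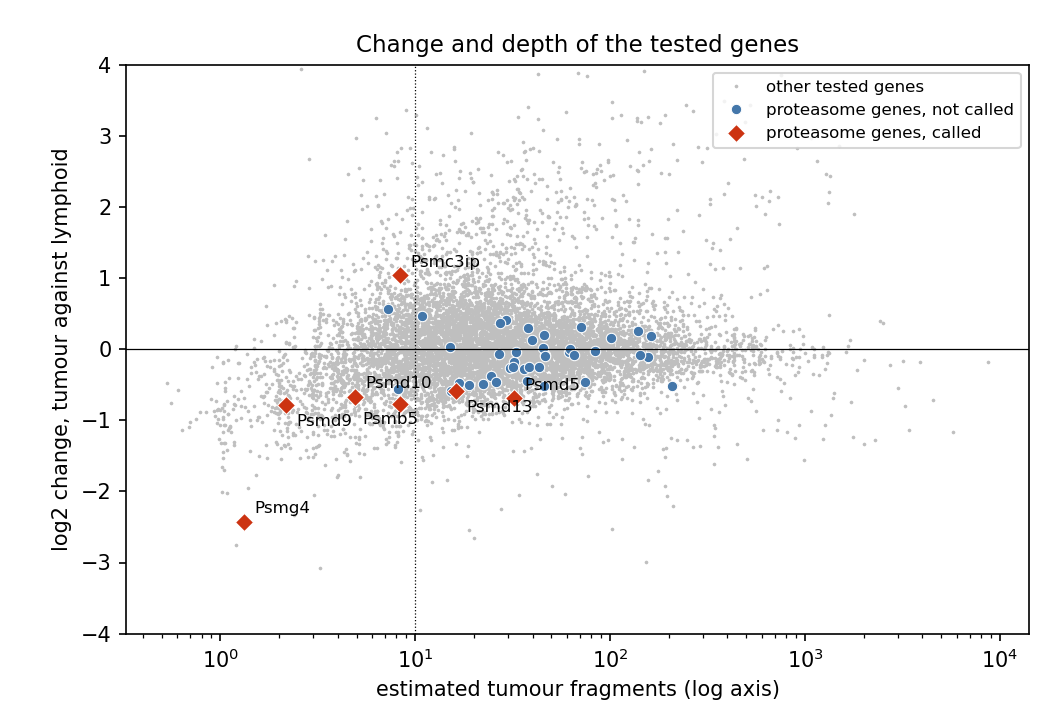
Log2 change against estimated tumour fragments (log axis) for the tested genes, with proteasome genes in colour and the dotted line at 10 fragments; 20 genes beyond a log2 change of 4 and 123 under 0.5 fragments are not drawn. Most proteasome genes sit between 10 and 200 fragments near 0, and 5 of the 7 called genes lie left of the line.

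Other genes of the pathway, from lists chosen along with the members, are read against the same 12.7% called higher and 9.17% called lower of all tested genes. Among 10 tested genes of further subunits, assembly factors and proteasome-bound proteins, 1 was higher and 0 lower (median log2 change -0.16). That gene was Zfand2a, a stress-induced proteasome-binding protein, at 1.012, 1.38 and 2.52 (log2 change 0.68, limma adjusted p = 0.0471). Pomp, the main maturation factor of the core, was at 22.4, 21.7 and 17.3 (adjusted p = 0.218), and Adrm1, a ubiquitin receptor, at 11.4, 12.2 and 12.1. Among 9 tested regulators of proteasome genes 1 was higher and 0 lower (median 0.27). It was Mafg, a small Maf partner of NFE2L1 and NFE2L2, at 1.82, 3.15 and 6.21 (log2 change 1.08, adjusted p = 0.0353), while Nfe2l1 itself was at 6.29, 6.94 and 8.19 (adjusted p = 0.267). Of 16 tested genes of ubiquitin and substrate delivery 0 were higher and 2 lower, the shuttle factors Ubqln2 (7.46, 7.46 and 4.68) and Ubqln4 (4.67, 4.60 and 2.77), with log2 changes of -0.58 each and adjusted p of 0.0464 and 0.0418. Pomp, Adrm1 and Nfe2l1 were picked after their values were seen. Of the calls in these lists 0 were left with counting error added (adjusted p from 0.343 to 0.444).

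Markers of most other cell types were low, the exceptions being Klrb1c (23.6, 20.1 and 13.4) and Pecam1 (9.76, 8.80 and 7.70). The summed level of 10 macrophage and monocyte genes was 1.51, 1.36 and 10.6, with C1qb and C1qc at 0 in the tumour library, and Itgam, the 1 gene of the list that was tested, was called higher. The sums were 1.35, 1.49 and 3.35 for 7 melanocyte genes (Mlana at 0 in all libraries), 2.74, 2.36 and 5.05 for 9 dendritic cell genes (Itgax and H2-Eb1 at 0 in the tumour library) and 0.757, 0.530 and 0.646 for 5 B cell genes, 4 of them at 0 in the tumour library. For 4 genes of CD8 T and NK cells the sums were 24.2, 21.1 and 20.2, mostly Klrb1c in each library. The rest of that list was higher in the tumour library: Cd8a (0.0647, 0.0304 and 0.503), Cd8b1 (0.494, 0.783 and 4.77) and Ncr1 (0, 0.169 and 1.47). Of 2 tested, Cd8b1 was called higher. For 5 stromal genes the sums were 9.80, 8.90 and 8.69, mostly Pecam1. Cdh5 (0, 0.0234 and 0.777) and Col1a1 (0.0422, 0.0495 and 0.219) were higher in the tumour library, while Col1a2 and Col3a1 were at 0 there. With counting error added neither Itgam nor Cd8b1 was called (limma adjusted p = 0.0653 and 0.0790). The macrophage sum moved opposite to the called proteasome subunits, and its part in their values was not tested. The odorant and vomeronasal receptor genes also had a higher mean scaled FPKM per gene in the tumour library (0.662, against 0.0583 and 0.1005). How much of the marker sums is such low-level signal was not tested.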

How the data were processed

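Per the labels' protocols, total RNA of 300000 CD4+ T cells was made into stranded, ribosome-depleted libraries and sequenced in pairs of 75 bp. The submitters' processing notes list kallisto, DESeq2 and mm10 with no version. What each did is not given in those notes. The deposited values, 1 for each of 23832 rows, were taken as FPKM, a unit inferred from the header style and from library sums that differ.

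For 252 symbols in several rows the row of highest mean was kept. Positions and transcript lengths came from GENCODE M21 (GRCm38, the assembly of mm10), with 22905 symbols matched. Median-of-ratios factors came from 9660 tested genes above 0 in all libraries. Limma 3.58.1 (R 4.3.3) was fitted with a mean-variance trend to log2 of scaled FPKM plus 1 for genes averaging 1 FPKM or more. A run on simulated data gave every library the spread of the lymphoid pair and no difference in depth. It therefore cannot vouch for calls that rest on few tumour fragments. Depth was read from single-transcript genes of at least 1000 nt under 2 FPKM. Their most shared value of FPKM times length (within 3%) was taken as 1 fragment. A gene's fragments use the median length of its coding transcripts, so they are estimates, and a counting SE covers counting error only. The named genes are the catalytic subunits, the activators, every called gene, the extremes of each group, genes at 0 and up to 4 called genes of each list. The members and lists were chosen with earlier results of these data known. Other settings were other scalings, filters, pseudocounts, summed rows, added counting error and leaving out each lymphoid library.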

Additional observations from a re-analysis of the deposited data

How the results depend on the processing

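No paired analysis was possible because there is 1 tumour library, whose title carries no number. Calls could not be recomputed without a lymphoid library, since no residual degree of freedom is left.

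Scaling by the 75th percentile or summing rows gave the same 1 higher and 6 lower members. Of all tested genes 12.6% were then higher and 10.4% lower with the 75th percentile, and 12.7% and 9.05% with summed rows. Psmg4 was lower in every fit but that with counting error, and Psmb5 in every fit but those with counting error, library totals and a floor of 5 FPKM. Members called higher and lower numbered 0 and 45 as deposited (4.74% and 77.8% of all tested genes) and 12 and 1 with library totals (44.6% and 2.85%). They numbered 0 and 5 at pseudocount 0.1 (11.6% and 8.83% of all tested genes). Above a mean of 5 FPKM, where 41 members were tested, they numbered 0 and 1 (4.13% and 3.74%). With counting error they numbered 0 and 0 (3.21% and 0.269%). Over all genes the 1246 higher and 899 lower calls became 465 and 7620 as deposited, 4370 and 279 with library totals, 211 and 191 above a mean of 5 FPKM and 311 and 26 with counting error; 7364 were higher with no filter. Higher calls were 58.1% of all calls, 5.75% as deposited, 94.0% with library totals, 90.3% with no filter and 92.3% with counting error. Of the pathway lists, whose alternatives were added after seeing the data, 2 higher and 2 lower calls became 0 and 50 as deposited, 27 and 0 with library totals, 0 and 1 at pseudocount 0.1, 0 and 0 above a mean of 5 FPKM, and 0 and 0 with counting error.

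As deposited, 12 members turned to called falls: Psma3 (log2 change -0.97), Psma5 (-0.66), Psmb1 (-0.96), Psmb3 (-0.84), Psmb6 (-0.74), Psmc1 (-1.08), Psmc4 (-0.97), Psmd14 (-0.90), Psme2 (-0.90), Psme3 (-0.77), Psmf1 (-0.83) and Psmg1 (-0.51). With library totals Psmd13 was at 0.10. As deposited and with library totals, medians were -1.24 and 0.62 for all members, -1.20 and 0.68 for alpha, -1.36 and 0.49 for constitutive beta, -1.38 and 0.45 for immunoproteasome, -1.15 and 0.70 for ATPase, -1.32 and 0.48 for non-ATPase and -1.08 and 0.86 for activator genes. With the 75th percentile the immunoproteasome median was -0.32 and the ATPase median -0.077. At pseudocount 5 the immunoproteasome median was -0.23, the non-ATPase median -0.19 and the catalytic difference -0.11. Leaving out a lymphoid library gave medians of -0.23 to -0.13 for all members, -0.35 to -0.32 for immunoproteasome, -0.18 to 0.11 for alpha, -0.39 to -0.11 for constitutive beta and -0.06 to 0.24 for activator genes, so that the sign for alpha and activator genes depends on which lymphoid library is kept.

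Members at least 1.5-fold above and below both lymphoid libraries numbered 1 and 6 (15.6% and 12.7% of all tested genes), 0 and 44 as deposited and 19 and 2 with library totals; they were 1 and 9 without lymphoid library 1 and 3 and 10 without lymphoid library 2. The cause of these differences was not tested. Matching 1.5-fold shares of all tested genes are not given for the other settings, so those counts are not read as a trait of the proteasome genes. In limma, 77.8% of all tested genes were called lower as deposited and 44.6% higher with library totals.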

Other observations

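Genes that supply peptides to MHC class I, and their interferon-pathway regulators, had 0 higher and 0 lower calls among 11 tested, with a median log2 change of -0.21. Tap1, the peptide transporter gene that starts beside Psmb9 on chromosome 17, was at 28.3 and 28.0 scaled FPKM in the lymphoid libraries and at 29.8 in the tumour library. Nlrc5, the activator of MHC class I genes, was at 23.5, 20.6 and 23.6, and Irf1, an interferon-induced factor known to act on Psmb9, at 37.5, 41.0 and 45.2. All 3 tumour values lay above both lymphoid ones, none was called, and the 3 were picked after their values were seen. B2m, the most abundant of the list, was at 767.3, 615.4 and 577.2 (limma adjusted p = 0.510).

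Cytosolic peptidases that trim proteasome products also had 0 calls, among 9 tested, with a median log2 change of 0.20. Tpp2, the most abundant, was at 18.8, 15.3 and 21.03, with an adjusted p of 0.330 in limma.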
